A study of Drosophila melanogaster with 2 samples.

Results

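Distal Corto-GFP summits inside genes are the ChIP-seq peak summits of the fly chromatin protein Corto that lay more than 2000 bp from every annotated protein-coding transcription start site (TSS) and within the span of at least 1 protein-coding gene. They were chosen by position alone from the authors' optimal peak set, and numbered 623 of 2644 summits (23.6%, 95% Wilson interval 21.98 to 25.2). All 2644 optimal peaks were among the strongest of the pooled list, the peak list of both replicates together. A place in the set does not mean a high rank in each replicate. Of the 623, 314 (50.4%) were among the strongest 2644 peaks of both replicates taken alone. The only group, corto-GFP, was whole Drosophila melanogaster embryos of both sexes aged 0 to 24 h, from a transgenic line that stably expresses Corto fused C-terminally to green fluorescent protein (GFP), and DNA was precipitated with an antibody against GFP. The group had 2 biological replicates, and there was no second condition, strain or stage. Whole embryos mix all tissues and a day of development, so a summit cannot be assigned to a cell type or time, and whether untagged Corto was also present is not given in the labels. The deposited values are peak positions and signals on dm6 without read counts, so the depth of the replicates is unknown, intervals cover counting error only, and each region is counted as 1 unit although neighbouring summits can share signal.

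Corto carries a chromodomain, a fold found in proteins that bind modified histones or other methylated proteins, and corto mutations modify the effects of both Polycomb group genes, which keep developmental genes silent, and Trithorax group genes, which keep them active. Sites far from a TSS but inside a gene lie mostly in introns, and in Drosophila the long introns of developmental regulators are known to hold many enhancers, the elements that set where and when a gene is transcribed. ChIP finds DNA that was close to the tagged protein, directly or through partners, and shows neither which gene a site acts on nor whether it acts at all.

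The sequence around the strongest intronic summit on each of X, 2L, 3L and 3R is shown first, 75 bp on either side, because these sites had the highest signals among intronic summits there. Capitals mark the 5 letters CACTG on the strand shown, the core described below, which occurs in the stretches of Tlk and CG42238 and not in those of osa and CG32486. The osa summit has it farther out, within 100 bp. All sequences are from the NCBI genome of the dm6 assembly, written 5′ to 3′.
osa, chr3R:17704342-17704492, plus strand: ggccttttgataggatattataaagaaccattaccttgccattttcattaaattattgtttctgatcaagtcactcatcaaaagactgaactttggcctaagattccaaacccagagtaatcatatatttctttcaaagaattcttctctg
CG32486, chr3L:3060736-3060886, plus strand: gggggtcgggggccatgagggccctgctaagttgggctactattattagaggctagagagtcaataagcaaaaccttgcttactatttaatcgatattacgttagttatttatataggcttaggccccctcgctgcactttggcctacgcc
Tlk, chrX:3742156-3742306, plus strand: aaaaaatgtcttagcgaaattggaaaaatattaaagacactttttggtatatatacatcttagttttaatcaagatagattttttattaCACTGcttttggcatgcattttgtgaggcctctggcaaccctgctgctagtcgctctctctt
CG42238, chr2L:21009432-21009582, plus strand: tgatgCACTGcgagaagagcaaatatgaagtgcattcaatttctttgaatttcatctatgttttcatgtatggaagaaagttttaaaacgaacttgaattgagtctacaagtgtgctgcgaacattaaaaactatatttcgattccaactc

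The next 12 sequences are the strongest intronic summits on the same chromosome arms that carried a longer form of the core within 100 bp. They are aligned on its letters, CACTGNGNG, in capitals, and each is written on the strand that has them. In 7 of the 12 the capitals are followed by AAA, which the choice did not require.
CG42238, chr2L:21009427-21009457, plus strand: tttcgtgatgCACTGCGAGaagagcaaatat
Cad86C, chr3R:10835157-10835187, minus strand: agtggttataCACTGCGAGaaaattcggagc
CG32264, chr3L:3785127-3785157, minus strand: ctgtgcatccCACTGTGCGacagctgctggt
aop, chr2L:2165002-2165032, minus strand: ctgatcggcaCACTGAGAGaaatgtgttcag
rols, chr3L:12053965-12053995, minus strand: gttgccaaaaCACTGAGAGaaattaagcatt
Socs36E, chr2L:18145535-18145565, minus strand: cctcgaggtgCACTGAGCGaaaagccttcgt
ush, chr2L:530463-530493, plus strand: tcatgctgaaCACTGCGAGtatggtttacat
tkv, chr2L:5254371-5254401, minus strand: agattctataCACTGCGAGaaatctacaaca
Tis11, chrX:12665705-12665735, minus strand: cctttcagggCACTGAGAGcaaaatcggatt
fz, chr3L:14364971-14365001, minus strand: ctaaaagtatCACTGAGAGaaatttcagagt
InR, chr3R:21605343-21605373, plus strand: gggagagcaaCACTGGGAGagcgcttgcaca
CG9674, chr3L:16796776-16796806, plus strand: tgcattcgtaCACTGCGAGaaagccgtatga

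The summits filled introns and avoided exons. Of the 623 distal genic summits, 607 (97.4%, 95% Wilson interval 95.9 to 98.4) lay in introns, against 76.1% of all bases that meet the same rule. Coding sequence held none, which allows a share of up to 0.482%, although it made up 16.8% of the bases. The 3′ untranslated regions (UTRs) held 11 summits (1.77%) against 6.63% of bases, and the 5′ UTRs held 5 (0.803%) against 0.5003%. In the strongest 2644 peaks of each replicate taken alone, the intronic share of distal genic summits was 97.6% in replicate 1 and 97.4% in replicate 2. Weaker entries of the pooled list that met the rule were less concentrated, with 87.4% in introns, 3.59% in coding sequence and 8.53% in 3′ UTRs.

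**Figure D1:**
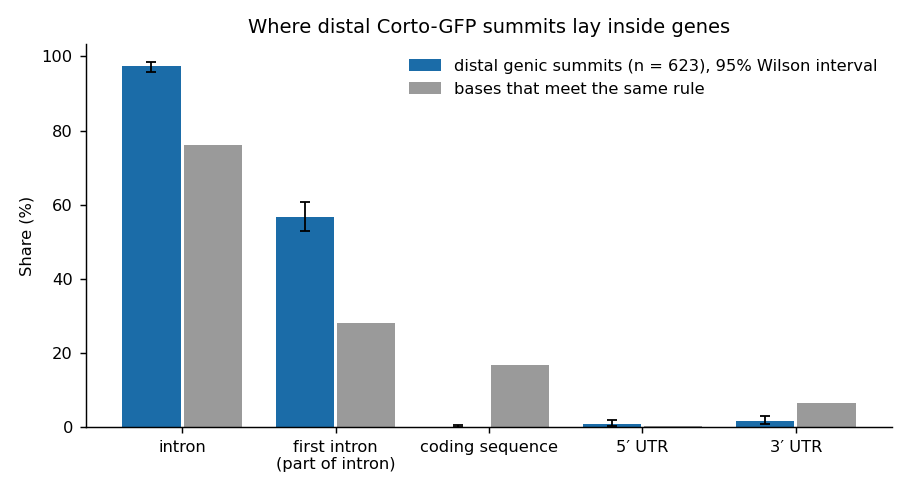
Share (%) of the 623 distal genic summits (left bars, with 95% Wilson intervals) and of the bases that meet the same rule (right bars) in introns, first introns, coding sequence and UTRs. First introns held 56.8% of summits against 28.2% of bases, and coding sequence held no summit.

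First introns, those nearest the 5′ end of at least 1 annotated transcript, held 354 of the summits (56.8%, 52.9 to 60.7), against 28.2% of the bases. The share was 60.9% in replicate 1 and 59.2% in replicate 2, and 45.6% among the weaker pooled entries. First introns are also nearer to TSSs, so the densities were compared within classes of distance. At 2 to 3 kb from the nearest TSS, first introns held 34.1 summits per megabase (Mb) (exact 95% Poisson interval 27.5 to 41.8) and other introns 17.7 (12.5 to 24.3). At 5 to 10 kb they held 23.2 (19.1 to 28.0) and 12.03 (9.41 to 15.2), and at over 20 kb 9.47 (5.30 to 15.6) and 3.76 (2.60 to 5.25). The density was higher in first introns in all 5 distance classes, and at 10 to 20 kb the intervals overlapped, 15.4 (11.3 to 20.5) against 10.1 (7.68 to 13.01). Within the shortest intron around them, 198 summits lay in the 5′-most of 3 equal parts, 229 in the middle one and 180 in the last.

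Summits thinned out with distance from the TSS. The median distance was 5536 bp (quartiles 3201 and 9990.5), against 7298 bp for the bases that meet the rule, and the farthest summit lay 44825 bp away. Density was 15.8 summits per Mb at 2 to 3 kb (13.3 to 18.7), 13.2 at 3 to 5 kb, 13 at 5 to 10 kb, 10.3 at 10 to 20 kb and 4.41 at over 20 kb (3.27 to 5.81), against 11.2 over all 55.6 Mb that meet the rule. The median signal hardly moved over these classes, between 107 and 112. By intron length, density was highest in introns of 5 to 10 kb (18.7 per Mb, 15.5 to 22.4) and lower both in introns up to 5 kb (10.99, 8.88 to 13.4) and over 50 kb (8.75, 6.75 to 11.1). The 3 summits just inside the distance rule lay 2009, 2012 and 2029 bp from a TSS with signals of 149.996, 114.7 and 153, and the 3 just outside it lay 1997, 1998 and 1998 bp away with signals of 89.97, 139 and 114.

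**Figure D2:**
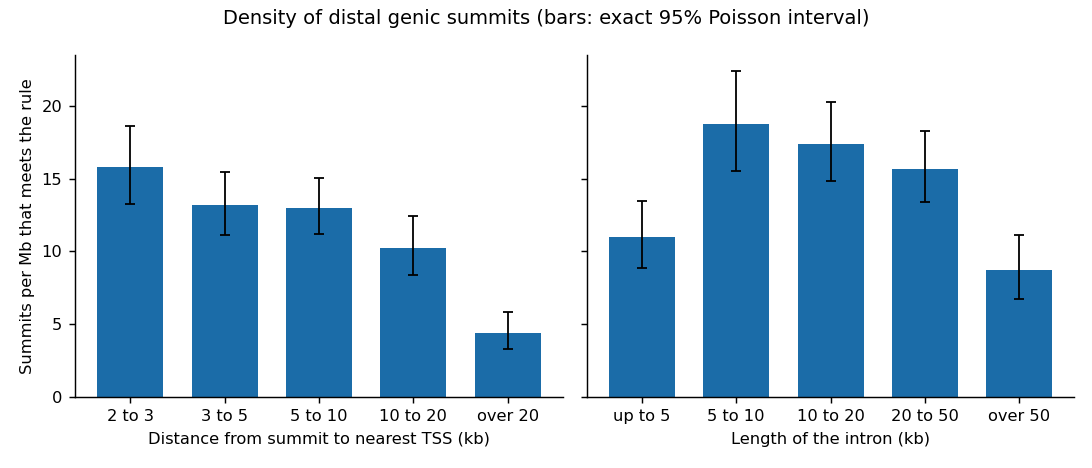
Distal genic summits per Mb that meets the rule, by distance to the nearest TSS (left) and by length of the shortest intron around the summit (right), with exact 95% Poisson intervals. Density was 15.8 at 2 to 3 kb and 4.41 beyond 20 kb, and 18.7 in introns of 5 to 10 kb.

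The distal genic share was smallest among the strongest peaks. It was 20.4% in the strongest 2644 peaks of replicate 1 and 24.4% in those of replicate 2 (22.4 ± 2.83%, SD, n = 2). In the pooled list, ordered by signal in steps of 3000 entries, it was 23.8% in the first step, 35.9% at ranks 9001 to 12000 and 41.3% in the last, next to the 41.5% of all bases of the arms that meet the rule. Of all summits more than 2000 bp from a TSS, 67.9% were inside genes, against 61.9% of the bases at that distance.

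Host genes, the genes whose span held a distal summit, numbered 359. Among the 5721 protein-coding genes with any sequence that meets the rule these were 6.28%, among genes with 10 kb or more of it 21.3%, and among genes with 50 kb or more 33.2%. Hosts had a median span of 30.98 kb, against 2.17 kb for all protein-coding genes, most of which have no sequence that meets the rule. The rule thus sets part of this difference. Of sequence that meets the rule, hosts had a median of 23.6 kb and genes with any of it 2.65 kb. Of the hosts, 230 held 1 summit, 68 held 2, 24 held 3 and 37 held 4 or more, and the 20 genes with most held 134 of the 623 summits (21.5%). For 477 summits (76.6%) the nearest TSS belonged to the host, and 21 summits lay in a pair of overlapping hosts. In 158 hosts (44.0%) another summit of the optimal set lay within 2000 bp of a TSS as well. Neither the 76.6% nor the 44.0% was compared with bases or with other genes of like length.

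The genes with most distal summits were regulators of transcription and signalling together with a cell adhesion gene. Tet, the TET family dioxygenase gene (3L 2786207 to 2879158), held 12, with signals from 81.8 to 257, and 2 of them had no match in replicate 1. The transcriptional corepressor gene sbb (2R 18278198 to 18357296) held 11, from 85.7 to 238. Taking the strongest 2644 peaks of each replicate alone, Tet held 7 and 7 and sbb 9 and 9 in replicates 1 and 2. There were 9 each in tara, a gene of cell cycle and transcription control, in Eip75B, an ecdysone-induced nuclear receptor gene, and in kirre, an immunoglobulin-domain gene of muscle fusion. The Dpp receptor gene tkv and the ecdysone-induced Ets factor gene Eip74EF held 7 each. Those with 6 were tai, a coactivator of the ecdysone receptor, the Notch coactivator gene mam, heca, the ecdysone receptor gene EcR, and Mnt, which encodes a repressor that opposes Myc.

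Long genes can hold more summits by length alone, and kirre had only 2.95 per 100 kb that meets the rule (1.35 to 5.59), against 31.4 in tara (14.4 to 59.6). By density, among hosts with 3 or more summits and 10 kb or more of such sequence, Pits came first with 46.6 per 100 kb (15.1 to 109), a gene whose product binds the Sin3A corepressor. It was followed by puc, the phosphatase gene that switches off JNK signalling, with 40.9 (13.3 to 95.4), tara, Mnt with 26.4 (9.68 to 57.4) and vri with 24.4 (5.04 to 71.4). The intervals of these 5 genes overlap, so they have no firm order. The puc summits had signals of 183, 176, 134, 102 and 95.8, and their matched summits had 105, 90.6, 85.9, 71.5 and 46.6 in replicate 1 and 81.2, 84.7, 32.4, 34.9 and 45.5 in replicate 2. At puc each optimal summit thus had a counterpart in both replicates, with the 2 strongest above 81 in each.

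**Figure D3:**
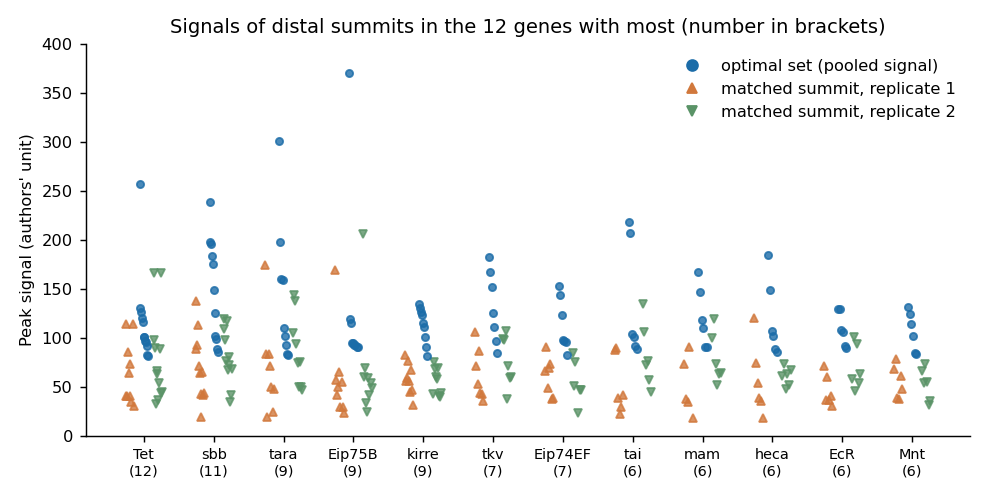
Peak signal (authors' unit) of each distal summit in the 12 genes with most, with the pooled signal of the optimal set and the signal of the matched summit in replicate 1 and replicate 2. Most summits sat near the lower end of the set, with single strong ones such as 371 in Eip75B and 301 in tara.

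Some distal genic summits lay close to one another, and the counts that follow were not compared with those of other summits or of bases. Of the 623, 111 (17.8%) had another distal genic summit within 1 kb and 265 (42.5%) within 5 kb, while 38 (6.10%) were within 500 bp of one. The longest run with gaps of at most 5 kb was in sbb, with 7 summits over 12.3 kb of its first intron and signals from 98.8 to 238. A run in tkv held 6 summits over 8.77 kb, and runs of 5 lay in spen, tara and Pits over 10.4, 3.89 and 5.52 kb. Some neighbours about 200 bp apart matched the same replicate summit. In Tet, the summits at 3L 2824165 and 2824364 both took a replicate 1 summit with a signal of 114 and a replicate 2 summit with 166.

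The 10 strongest sites, after dropping summits within 1000 bp of a stronger one, were as follows. An intronic summit of osa, the gene of a Brahma remodelling complex subunit, had a signal of 626 (3R 17704273 to 17704569, summit 13933 bp from the TSS) and 306 and 333 in replicates 1 and 2. The start of the non-coding gene lncRNA:CR46035 lay 722 bp from it. CG32486 followed with 525 (271 and 249 in the replicates), Tlk, the Tousled-like kinase gene, with 488 (238 and 255), and the nuclear receptor gene Eip78C with 474 (267 and 216). Signals were 413 in CG12769 (210 and 204.9), 399 in CG42238 (207 and 202) and 395 in vri (197 and 197), a clock gene for a repressor. The CG42238 summit lay 40540 bp from its nearest TSS. The cell polarity gene baz had 374 (168 and 208), in a 5′ UTR exon 18737 bp from the TSS, Eip75B had 371 (169 and 206) and babos 360 (158 and 220). Both replicates ranked all 10 among their 99 strongest peaks. Of these 10 sites, 8 lay in a first intron.

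Over all distal genic summits the signal had a median of 110 (quartiles 92.3 and 147, range 81.5 to 626), close to the 111 of distal summits between genes and the 114.9 of promoter summits, those within 500 bp of a TSS. A summit of each replicate list lay within 200 bp for 607 of 623 (97.4%, 95.9 to 98.4), with a median distance of 36 bp between the matched summits of replicate 1 and replicate 2. Replicate 1 had 428 of them and replicate 2 had 471 among its own strongest 2644, and 314 (50.4%, 46.5 to 54.3) were there in both replicates at once, against 57.1% (51.4 to 62.7) of distal intergenic and 55.2% (52.3 to 58.0) of promoter summits. The optimal set was derived from these replicates, so such matches are in part built in. The summits were spread evenly over the large arms, from 10.3 per Mb on 3R to 12.3 on 2L, while the small chromosome 4 held 1.

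Gene lists of pathways were drawn up with earlier results of these data known, and tara, sbb, Tlk and ush in particular had already been seen as dense sites, so the counts below describe the lists and test nothing. Densities are summits per Mb that meets the rule within the listed genes, against 11.2 for all genes, and the strongest 2644 peaks of each replicate gave 9.70 and 11.6 for all genes. Some genes stand in 2 lists, such as ush, br and Trl.

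The list of corepressor genes had the highest density, and most of its summits lay in sbb, tara and ush, which had been seen as dense before. Its interval overlapped those of the JNK and the Dpp and TGF-beta lists below. Of 10 genes in this list with sequence that meets the rule, 6 were hosts, with 32 summits in all at 140 per Mb (exact 95% Poisson interval 95.9 to 198), and 123 and 118 per Mb in replicates 1 and 2. Of these summits sbb held 11, while ush, a cofactor of GATA factors, and Smr, a nuclear receptor corepressor, held 5 each. The list as drawn up also has tara, described above as a gene of cell cycle and transcription control. It held 9 of the summits in 28.7 kb that meets the rule, and the density of the list without tara was not computed. Trithorax group genes had 14 summits in 7 of 23 genes at 61.2 per Mb (33.5 to 103), led by osa (626), the histone methyltransferase gene trx (273) and the remodeller gene kis (149). corto itself held 1 weak summit in a 3′ UTR (3R 5083164, signal 81.9, and 43.0 and 36.3 in the replicates). Polycomb group genes had 8 summits in 4 of 22 genes at 36.6 per Mb (15.8 to 72.0), led by the demethylase gene Kdm2 (254), Psc (214) and jing (141).

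Lists of signalling pathways ranged from 0 to 89.8 per Mb. JNK pathway genes had 9 summits at 89.8 per Mb (41.1 to 171), in puc, the kinase gene msn and the Fos gene kay, 3 of 12 genes. Dpp and TGF-beta pathway genes had 21 summits in 6 of 17 genes at 83.4 per Mb (51.6 to 127), from the receptor tkv to the nuclear factor shn (288), the inhibitory Smad Dad (307) and the glypican dlp (165). EGF receptor and Ras pathway genes had 20 in 7 of 21 genes at 58.2 per Mb (35.5 to 89.9), with the receptor Egfr (257), the kinase Raf (308) and the Ets repressor aop (260) strongest. Insulin and TOR pathway genes had 7 in 3 of 17 genes, the receptor InR (162) and the transcription factors foxo (198) and REPTOR (147), at 49.97 per Mb (20.1 to 103). Notch pathway genes had 12 in 5 of 15 genes at 43.0 per Mb (22.2 to 75.2), with the receptor N (198), its ligand Delta (189) and mam (168) strongest. Wnt pathway genes had 15 in 7 of 23 genes at 30.5 per Mb (17.1 to 50.3), led by the receptors fz2 (222), arr (204) and fz (199). Hippo pathway genes had 6, shared by ex and ds, at 35.6 per Mb (13.1 to 77.6). The 8 Hedgehog pathway genes had none, in only 0.0510 Mb.

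Lists of hormone and developmental regulators ranged from 14.6 to 57.4 per Mb. Nuclear receptor genes had 23 summits in 7 of 19 genes at 53.0 per Mb (33.6 to 79.5), with Eip78C (474), Eip75B (371) and Hr4 (255) strongest. Other ecdysone response genes had 17 in 5 of 11 genes at 38.8 per Mb (22.6 to 62.0), led by the transporter gene E23 (235), tai (218) and the kinase gene Eip63E (161). The GATA genes with ush differed between the replicates, with 57.4 per Mb in the optimal set (21.1 to 125) and 57.4 and 9.57 in replicates 1 and 2. Clock genes had 4 summits, 3 of them in vri and 1 in cwo. BTB zinc finger genes, led by bab1 (162), had 19.9 per Mb (9.53 to 36.6), Hox genes and cofactors 14.6 (5.34 to 31.7), with 4 summits in Antp (strongest 175) and 2 in hth (104), and mesoderm and muscle regulators 15.4 (3.18 to 45.0), with 1 each in Mef2, nau and twi. These last 3 intervals include the 11.2 of all genes.

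The lists of ion channel and of axon guidance genes held few distal summits. Among genes of any kind, density was low only in the shortest and the longest, counted as pairs of a summit and a host. It was 4.48 pairs per Mb in the 59 genes with 100 kb or more that meets the rule. Genes with 50 to 100 kb had 14.96, those with 25 to 50 kb 13.8, and those with less than 10 kb 8.39. The 27 ion channel genes held no distal summit in 1.08 Mb, in the optimal set or in either replicate's strongest 2644, with an exact 95% Poisson upper bound of 3.42 per Mb. The 39 axon guidance and adhesion genes had 5 in 1.85 Mb, 2.70 per Mb (0.875 to 6.29), and 2.70 and 2.16 per Mb in replicates 1 and 2, one each in Ten-a, Sema1a, sli, Fas3 and Dscam3. The cell adhesion gene kirre, with 9 summits in 305 kb that meets the rule, was not in this list. The low density thus holds for the genes listed and depends on which were chosen. RNA binding regulators had 10 in 6 of 23 genes at 7.31 per Mb (3.51 to 13.5), with the strongest in the translational repressor gene pum (338) and the splicing regulator gene heph (309). Genes of protein kinases and cyclic nucleotide signalling had 8 in 4 of 20 genes at 13.4 per Mb (5.77 to 26.3), and Tlk held 5 of the 8. The 4 ribosomal protein genes with sequence that meets the rule had none in 0.00333 Mb, too little to tell.

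**Figure D4:**
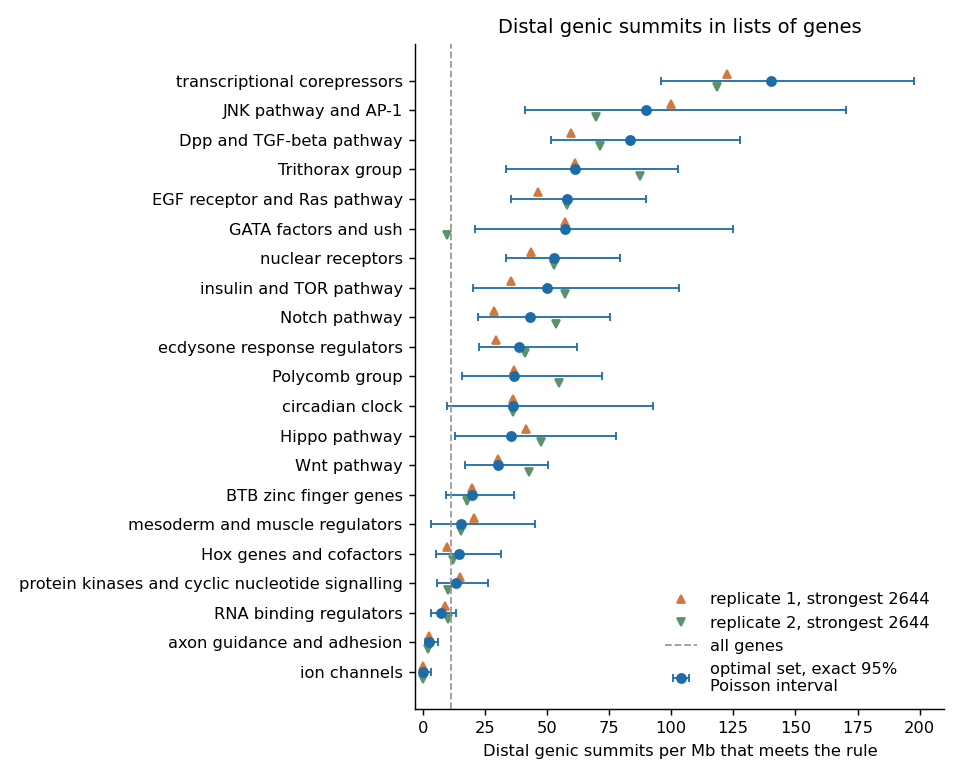
Distal genic summits per Mb that meets the rule in each list of genes with at least 0.1 Mb of it, with exact 95% Poisson intervals, and the same in the strongest 2644 peaks of replicate 1 and replicate 2. The list of corepressor genes, in which tara was counted, had 140, all genes 11.2 (dashed line) and ion channel genes none.

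The sequence under the summits was richer in A and T than its surroundings. Windows of 201 bp centred on the distal genic summits had a median G and C content of 36.3% (quartiles 32.6 and 40.8), against 40.3% in windows 1000 bp to the higher coordinate and 40.3% in the 195486 tiles of the same length that cover the introns meeting the rule. Distal intergenic and promoter summits had 36.8% and 35.3%. Repeats were fewer, with most of the window soft-masked at 5.46% of the summits and 11.6% of the tiles.

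Letters bound by known factors were searched on both strands in these windows, with 34 motifs in all, and 6 of them (17.6%) differed from the windows 1000 bp away (exact McNemar test, two-sided, Benjamini-Hochberg over the 34). The TATA box letters TATAAA were present at 31.9% of distal genic summits and 21.5% of the windows (exact test, adjusted p = 0.00115), and the initiator letters TCAGT at 35.6% and 28.3% (0.0292). The letters of CTCF, an insulator protein (AGGNGGC, 3.05% and 7.38%, exact test, adjusted p = 0.0185), of Ets factors (CCGGAA, 1.77% and 4.98%, 0.0188), of the Polycomb recruiter Pleiohomeotic (GCCAT, 25.7% and 33.4%, 0.0249) and of KLF factors (GGGNGGGG, 2.09% and 5.30%, 0.0249) were rarer at the summits. These 4 are rich in G and C and TATAAA is not, while the summits had the G and C content given above, and the part of that content in these differences was not tested. In the strongest 2644 peaks of replicate 1 alone only TATAAA was called, by 11.3 points (exact test, adjusted p = 0.00130), and in those of replicate 2 none was, where the lowest adjusted p of these 6 was 0.0570 (exact test). All 6 differences kept their direction in each replicate, and that of TCAGT was 6.49 points in replicate 1 and 7.597 in replicate 2, against 7.38 in the combined set. The GAGA factor letters GAGAG were present at 29.9% of the summits, against 26.8% of the windows (exact test, adjusted p = 0.648) and 21.5% of the tiles. The longer word GAGAGA was called more frequent in the scan of 6-letter words described below. It was present at 16.5% of the summits, 9.79% of the windows (exact McNemar test, adjusted p = 0.0272 over all words) and 7.44% of the tiles.

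The same motifs were compared with those at other summits of the set. Against the 294 distal intergenic summits, 0% of the 34 motifs were called (Fisher's exact test, two-sided, adjusted over the 34), with 1 at an unadjusted p under 0.05, GAGAG, at 29.9% and 22.4%, a difference of 7.41 points (1.24 to 13.2). Against the 1156 promoter summits, a larger set, 4 of 34 (11.8%) were called. The letters TATCGATA of the promoter factor DREF were present at 0.321% of distal genic summits and 5.10% of promoter summits (difference −4.78 points, −6.23 to −3.38, exact test, adjusted p = 5.88e-08). CGATA, the core of the insulator protein BEAF-32, which TATCGATA contains, was present at 21.3% and 32.5% (−11.2 points, −15.3 to −6.88, exact test, adjusted p = 9.02e-06). Both were also called in each replicate's strongest peaks. CAGCTG, an E-box of basic helix-loop-helix factors, was present at 6.26% and 11.2% (exact test, adjusted p = 0.00562), and was not called in replicate 1 (0.0519). ACAATG of Sox factors was present at 12.4% and 7.79% (exact test, adjusted p = 0.0178), and was called in neither replicate alone (0.256 in replicate 1 and 0.124 in replicate 2).

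The remaining motifs met neither threshold. Among them were the repeats GAGAGAGA and CACACACA and the M1BP letters GGTCACAC. The E-boxes searched besides were CACGTG for Myc and Max and, for Twist and like factors, CATATG or else CACATG. Early and stress factors were covered by CAGGTAG for Zelda, by TGANTCA for AP-1, by TGACGTCA for CREB, by TTGCGCAA for C/EBP and by GAANNTTC for heat shock factor. Developmental factors were covered by AGATAA for the family of Pannier and Serpent, by GTAAACA for forkhead factors, by TAATTA or else TAATCC for homeodomains, by AACCACA for Runx factors and by ACCGGTT for Grainy head. Signalling factors were covered by AGGTCA for nuclear receptors, by GTGGGAA for Su(H), by CCTTTGA for TCF, by TTCNNNGAA for Stat92E, by GCCGNCGC for Mad and by GGAATG for Scalloped. AGGTCA, the unit of nuclear receptor sites, was present at 3.37% of distal genic summits and 5.94% of the windows 1000 bp away (exact test, adjusted p = 0.204), although nuclear receptor genes were dense hosts. No match says only that these letters are not in the window.

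A scan of all 2080 words of 6 letters gave the clearest sequence pattern. Against the windows 1000 bp away, 59 words (2.84%) were more frequent at the distal genic summits and 38 (1.83%) less frequent (exact McNemar test, two-sided, Benjamini-Hochberg over the 2080). The strongest peaks of replicate 1 alone gave 58 and 24, and those of replicate 2 alone gave 24 and 4. Of the 59, 42 held at most 1 G or C, led by AATATA at 38.2% and 20.9% (exact test, adjusted p = 1.02e-07), and 31 of the 38 held 4 or more. Apart from these, 7 of the 59 words shared ACTG on one strand, led by ACACTG at 16.1% of summits and 6.26% of the windows (exact test, adjusted p = 1.82e-05), then ACAGTG at 17.7% and 8.35% (9.16e-05), CAGTGC at 17.5% and 8.35% (0.000450) and CACTGA at 16.2% and 7.70% (0.000450). Most directions were the same in regions that had no part in the choice of words. At distal intergenic summits 55 of the 59 words were more frequent and 34 of the 38 less frequent than 1000 bp away, and at promoter summits 58 and 34. After adjustment over these words, 26 of the 59 and 4 of the 38 were called at distal intergenic summits, and 50 and 30 at promoter summits. Those summits were as rich in A and T as the distal genic ones, and the part of that content in the shared directions was not tested. Windows 1000 bp away can hold another summit, and words that overlap are not independent.

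The letters CACTG, which 4 of these 7 words hold on one strand, were then followed as a core, with 2 extensions, CACTGNG and CACTGNGNG. All 3 were chosen after the scan and after a look at the letters beside it in the same summits, so the values at distal genic summits describe them and support nothing. The core was present at 45.4% of distal genic summits (41.6 to 49.4), 28.7% of the windows 1000 bp away and 27.3% of intron tiles. CACTGNG was present at 20.7% (17.7 to 24.1), 5.62% and 7.18%, and CACTGNGNG at 9.31% (7.27 to 11.8), 1.44% and 1.80%. In the 68663 tiles with the G and C content between the summits' quartiles, the shares were 25.05%, 6.30% and 1.48%. The initiator letters TCAGT overlap the core when it is followed by A.

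In sets that had not been used to choose the letters, the excess was tested with exact McNemar tests, two-sided and adjusted over the 9 tests of 3 strings in 3 sets. CACTGNGNG was present at 10.5% of the 294 distal intergenic summits (7.53 to 14.6) against 2.04% of the windows 1000 bp from them (exact test, adjusted p = 7.43e-05). At the 1156 promoter summits it was present at 5.36% (4.21 to 6.82) against 1.47% (3.23e-06). Among the 9551 weaker distal genic entries of the pooled list, all over 1000 bp from an optimal summit, it was present at 2.90% (2.58 to 3.26) against 1.95% (5.20e-05). The bare core was called at intergenic (50% against 30.3%, exact test, adjusted p = 6.69e-06) and promoter summits (38.8% against 32.3%, 0.00159) and not among the weaker entries (29.4% against 28.8%, 0.347). The share with CACTGNGNG at distal genic summits differed from that at promoter summits by 3.95 points (1.44 to 6.74) and from that at distal intergenic summits by −1.23 points (−5.75 to 2.71), again as a description. These sites come from the same libraries as the distal genic summits, so they are other places in the genome and not another experiment.

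**Figure D5:**
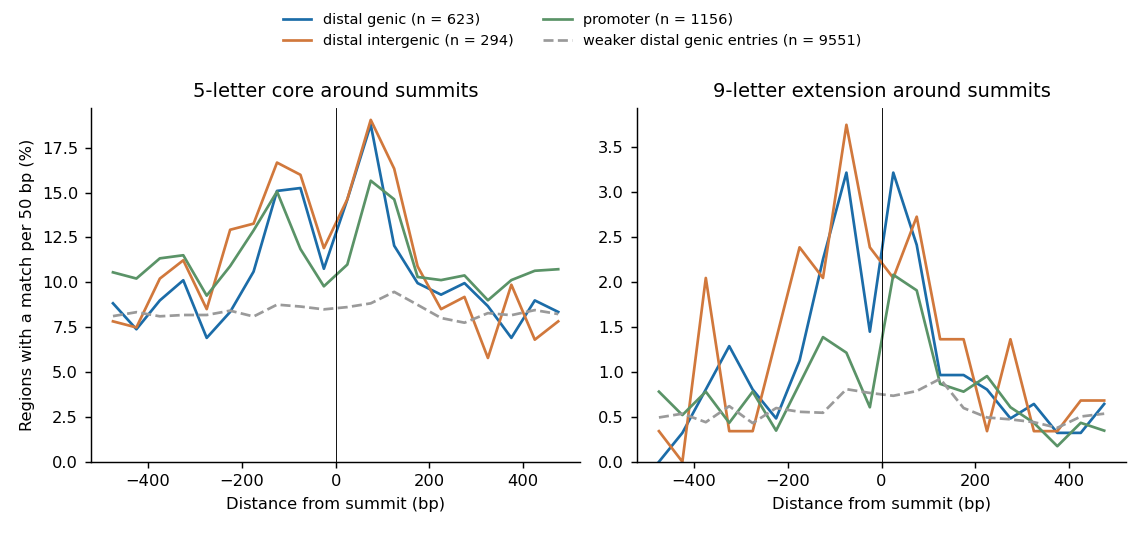
Share of regions (%) with a match starting in each 50 bp step, by distance from the summit, for the 5-letter core (left) and its 9-letter extension (right), at distal genic, distal intergenic and promoter summits and at weaker distal genic entries. At distal genic summits the core was most frequent 50 to 99 bp to the higher coordinate (18.8%), with 10.8% in the 50 bp just before the summit.

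Around the summit the core was not most frequent at the centre. In 50 bp steps it started in 18.8% of distal genic summits at 50 to 99 bp to the higher coordinate and in 15.2% at 51 to 100 bp to the lower one, against 10.8% in the 50 bp before the summit and 14.6% in the 50 bp from it. Beyond 200 bp the steps held between 6.90% and 10.1%. CACTGNGNG followed signal only loosely. It was present in 13.5%, 7.05%, 11.5% and 5.16% of 4 equal groups of distal genic summits by falling signal. Among weaker entries it was present in 3.14% up to rank 6000, 4.04% up to rank 12000, 2.60% up to rank 20000 and 2.37% beyond. The 58 summits with it lay in 51 host genes, among them Tet, sbb, tara, tkv and Pits, and 2 of the 58 windows were mostly soft-masked. GAGAG was present in 23 of the 58, but CACTGNGNG itself contains GAGAG when its open letters are A, as in CACTGAGAG. The count thus includes windows where the same letters match both, and it does not show separate GAGAG sites.

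The bases at the open positions and after the string were uneven, counted on the strand that has it, from 1 at its first C. Over 72 matches at distal genic summits, within 112 bp of the summit, position 6 was A in 45.8% and position 8 was A in 63.9%, against 28.2% and 34.2% of 3487 matches in intron tiles. The next 3 positions, 10 to 12, were A in 79.2%, 84.7% and 72.2% of the matches, against 40.4%, 43.4% and 43.0% in tiles. At distal intergenic summits these 3 were A in 86.1%, 86.1% and 83.3% of 36 matches, and at promoter summits in 43.2%, 40.5% and 41.9% of 74. The string followed by AAA was thus present at 39 of 623 distal genic summits (6.26%, 4.61 to 8.44), 2 of the 623 windows 1000 bp away and 0.420% of tiles. It was present at 25 of 294 distal intergenic summits (8.50%, 5.83 to 12.3) and 15 of 1156 promoter summits (1.30%, 0.788 to 2.13). The AAA was added after the base counts of all sets had been seen, so no test is given. The 31 bp sequences of aop, rols, Socs36E, tkv, fz and CG9674 above show it, as does that of Cad86C.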

How the data were processed

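Corto-GFP ChIP-seq peaks from 2 replicates of 1 group were taken from the authors' deposited lists. The notes deposited with them say that replicate and pooled lists (30000 entries each) used a control, and that the irreproducible discovery rate gave the optimal set. Aligner, caller and thresholds: not given in the sources used here. Control reads were not analysed here. The deposited peak signal has no stated scale and served only for description and for ranks within 1 list. Fragments were 200 to 800 bp, per the labels.

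Summits are 1-based on dm6. Genes were from Ensembl release 115 (BDGP6.54, 13945 protein-coding genes) and bases from NCBI's copy of that assembly. Replicate summits were matched within 200 bp. In the replicate lists, 1 summit lay outside its peak and was kept, and no optimal peak had this. Shares carry 95% Wilson intervals, counts exact Poisson intervals and differences Newcombe intervals. A share of 0 has the limit of 3 counts, a density of 0 the upper Poisson bound. Tests used the threshold 0.05 after Benjamini-Hochberg adjustment, with SciPy 1.17.1, and were tested on simulated data.

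The members, the 23 gene lists (with older symbols updated to the annotation, and 1 further list not reported here), motifs, tests and named genes were chosen with earlier results of these data known. The named genes were the hosts of the 10 strongest summits, the 12 with most, the 5 densest, up to 3 per list, and corto. The core, its extensions, the weaker entries, the tiles by G and C content, the replicate densities of lists and the first introns by distance were added after seeing the data.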

Additional observations from a re-analysis of the deposited data

How the results depend on the processing

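The distal genic share was 20.4% to 24.4% without one or the other replicate, 32.0% at over 1000 bp from a TSS, 12.8% at over 5000 bp and 20.6% with the TSSs of all annotated genes. The first intron share was 59.2% to 60.9% without a replicate, 63.0% at over 1000 bp and 50.4% at over 5000 bp, and the intron share 99.1% at over 5000 bp. Both replicates had a summit within 200 bp for 99.7% in the stronger 50% of the optimal set, and within 100 bp for 89.4%. Host genes numbered 208 in the stronger 50% and 207 at over 5000 bp. The 6 motifs called against flanks became 2 in the stronger 50%, 0 to 1 without a replicate, and 3 at over 5000 bp, with the TSSs of all genes or with a window of 50 bp. The 97 words of 6 letters became 41 in the stronger 50%, 28 to 82 without a replicate, 201 at over 1000 bp, 42 at over 5000 bp and 51 with a window of 200 bp. The 4 motifs called against promoters became 1 in the stronger 50%, 7 at over 1000 bp and 2 with a window of 50 bp. Against intergenic summits 0 motifs were called in each alternative, with 1 to 3 at an unadjusted p under 0.05 (Fisher's exact test). The cause of these changes was not tested. Some choices leave fewer or more summits, while the windows of 50 and 200 bp kept all 623. The strongest peaks of replicate 2 alone had 645 distal genic summits and gave 0 motifs and 28 words. No direction changed among the 10 motifs called in the report, nor for the core and its 2 extensions in 11 alternatives. Of these results, 89 kept their call and 46 lost it, and all 46 were of the 10 motifs. The 89 include every alternative for the core and its 2 extensions, judged without adjustment in the summits that chose them. Those add nothing to the stability of the motifs. The KLF difference shrank from -3.21 to -1.12 points with the control window to the lower coordinate (exact McNemar test, adjusted p = 0.592). The initiator difference shrank from 7.38 to 0.803 points with a window of 50 bp. No paired analysis was possible because all samples belong to 1 group. Depth is unknown, so a missing summit may be one not detectable at this depth.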

Other observations

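Starts of non-coding genes lay near some distal genic summits, which the rule, built on protein-coding TSSs, did not consider. Within 500 bp of a start of an annotated non-coding RNA were 18 of the 623 summits (2.89%, 95% Wilson interval 1.84 to 4.52), against 0.946% of the bases that meet the rule. Within 500 bp of a tRNA gene start were 4 (0.642%, 0.250 to 1.64), against 0.102% of the bases. Annotated transposable elements went the other way, with 5 summits (0.803%, 0.343 to 1.86) against 3.06% of the bases.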
